A study of Mus musculus with 18 samples.

Results

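The circadian clock of mouse endothelial cells was described through 10 transcripts, Cry1, Cry2, Per1, Per2, Per3, Clock, Nr1d1, Nr1d2, Dbp and Tef. These 10 genes were taken by symbol out of the 18194 genes listed in either the heart or the liver table, and all 10 were found in both. They were chosen by their values in these libraries, seen in the comparisons of heart regions and of liver reporter groups, so the differences between groups given for them are a description without a p-value. In the heart, endothelial cells, which form the inner lining of vessels, came from wild-type adult male mice at homeostasis, with 3 libraries each from the Apex, LV, VS and OR of the heart. In the liver, endothelial cells came from adult males at homeostasis that carried Ki67-CrexER, Cdh5-DreER and R26-RL-tdT, and 3 tdTomato-positive and 3 tdTomato-negative libraries were made. Both liver groups carry the same 3 alleles, and no liver library came from a wild-type mouse. The genotype names 1 recombinase for the proliferation gene Mki67 and 1 for the endothelial gene Cdh5, so the reporter depends on those 2 drivers. The labels give neither the time of day of collection nor the animal behind a library, and the letters LV, VS and OR are used as the labels give them.

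The mammalian clock is a feedback loop of transcription. CLOCK and its partner BMAL1 (gene Arntl) bind E-boxes and switch on the Per and Cry genes, whose proteins return to inhibit CLOCK and BMAL1. The nuclear receptors REV-ERBα and REV-ERBβ (Nr1d1 and Nr1d2) repress Arntl through ROR elements, and the PAR bZIP factors DBP and TEF carry the rhythm to output genes through D-boxes. In mouse tissues, endothelium included, Dbp, Nr1d1 and Per transcripts are known to cycle over the day, with Arntl close to the opposite phase.

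The promoters of 4 members are shown because the results below turn on them: Cry1 for the OR of the heart, Nr1d1 and Dbp for a single OR library, and Per1 for the liver. Each is 300 bases on the gene's own strand, 250 before and 50 after an annotated start, from RefSeq on GRCm38.p6. The windows are chr10:85185005-85185304 (minus strand) for Cry1, chr11:69098699-69098998 (plus strand) for the first of 2 Per1 windows, chr11:98775328-98775627 (minus strand) for Nr1d1 and chr7:45704997-45705296 (plus strand) for Dbp. Capitals mark an E-box, CACGTG, an E′-box, CACGTT or its complement AACGTG, or a D-box, TTATGNAA.
Cry1 promoter: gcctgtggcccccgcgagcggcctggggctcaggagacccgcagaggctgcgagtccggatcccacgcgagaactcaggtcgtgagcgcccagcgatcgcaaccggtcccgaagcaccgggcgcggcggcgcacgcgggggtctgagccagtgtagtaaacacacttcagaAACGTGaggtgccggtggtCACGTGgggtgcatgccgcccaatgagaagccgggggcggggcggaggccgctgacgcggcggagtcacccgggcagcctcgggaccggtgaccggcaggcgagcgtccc
Per1 promoter: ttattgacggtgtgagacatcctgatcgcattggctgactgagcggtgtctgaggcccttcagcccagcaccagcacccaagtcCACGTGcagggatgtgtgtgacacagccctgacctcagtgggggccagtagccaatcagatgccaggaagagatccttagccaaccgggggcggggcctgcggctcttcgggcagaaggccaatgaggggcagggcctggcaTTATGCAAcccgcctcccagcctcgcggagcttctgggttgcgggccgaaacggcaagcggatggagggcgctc
Nr1d1 promoter: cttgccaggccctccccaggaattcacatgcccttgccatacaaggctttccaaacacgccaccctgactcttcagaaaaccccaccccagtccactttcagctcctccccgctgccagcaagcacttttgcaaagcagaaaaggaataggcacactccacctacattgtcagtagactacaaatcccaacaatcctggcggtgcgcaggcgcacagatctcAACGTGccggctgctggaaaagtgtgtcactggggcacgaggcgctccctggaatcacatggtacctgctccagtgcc
Dbp promoter: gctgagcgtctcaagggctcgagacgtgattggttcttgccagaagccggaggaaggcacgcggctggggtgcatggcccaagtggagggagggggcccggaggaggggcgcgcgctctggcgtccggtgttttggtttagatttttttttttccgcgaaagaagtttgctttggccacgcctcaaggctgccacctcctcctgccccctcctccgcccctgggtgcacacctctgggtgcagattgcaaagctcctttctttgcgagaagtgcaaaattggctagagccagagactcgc
In the Cry1 window the E-box lay at -60 to -55 from the start site, and the E′-box at -79 to -74. The Per1 window held an E-box at -166 to -161 and a D-box at -24 to -17, and the Nr1d1 window an E′-box at -28 to -23. The Dbp window held none of the letters searched, and neither did the second Per1 window, which is not shown.

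Across the members, 13 windows of 9 genes matched a RefSeq entry by symbol, and both strands were searched. The E-box was found in 4 of the 13 windows, those of 3 members, Cry1, Per1 and Tef, against 7.15% of all 32851 windows in the RefSeq table. The E′-box was found in 3 of the 13, for Cry1, Cry2 and Nr1d1, against 4.68% of all windows. The D-box was found in 2 of the 13, for Per1 and Per3, against 3.38%. The core of a ROR element, TAGGTCA, was found in 2.61% of all windows and in 0 of the 13. These matches describe letters and are not measured binding sites.

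The 12 heart libraries held between 21590400 and 27720154 counts, and the 6 liver libraries between 23715769 and 26538590. All 7 endothelial markers (Pecam1, Cdh5, Kdr, Tek, Tie1, Emcn and Eng) were detected, with a summed level of 11905 to 15041 CPM (counts scaled to a common library size with TMM factors) in the heart and 9884 to 12607 CPM in the tdTomato-negative liver libraries. In the tdTomato-positive libraries that sum was 11957 to 12978 CPM. The RNA is from bulk cell samples, in which fewer cells of a type and less RNA per cell cannot be told apart. VS library 1 stood apart from the rest of the heart by the lowest ribosomal and cardiomyocyte marker sums (4033 and 498 CPM), and tdTomato-negative library 3 from the rest of the liver by the highest leukocyte sum (4527 CPM). In the heart the 4 fibroblast markers summed to 134 to 598 CPM and the 4 mural markers to 748 to 2007 CPM. The regions overlapped for both, except that the fibroblast sums of the LV (212 to 598 CPM) all lay above those of the VS (141 to 191 CPM). In the heart libraries, hepatocyte markers reached at most 0.422 CPM.

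Levels of different genes were compared per length, in the deposited TPM, which is scaled for gene length. In the heart Per1 was the most abundant member, with a median of 65.2 TPM over 12 libraries (lowest 30.0, highest 97.0). Cry1 followed with a median of 23.6 TPM (11.5 to 28.8), and then Cry2 with 13.0 TPM (9.19 to 17.8) and Nr1d1 with 10.8 TPM (3.73 to 50.9). Below these came Tef at a median of 7.31 TPM, Nr1d2 at 6.11 TPM, Clock at 5.16 TPM and Dbp at 2.44 TPM, with Per2 at 1.45 TPM and Per3 at 1.25 TPM at the bottom. Only Per1 stood clear of its neighbour in this order, being above Cry1 with no overlap of the 2 ranges. For the other 8 pairs of neighbours the ranges over the 12 libraries overlapped.

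The order in the liver had the REV-ERB and PAR bZIP genes on top. Nr1d1 was the most abundant member, with a median of 72.3 TPM over the 6 libraries (48.2 to 80.9), followed by Dbp with 25.3 TPM (11.8 to 37.0). Nr1d2 had a median of 11.5 TPM and Tef of 11.1 TPM, and next came Per1 with 6.28 TPM (3.51 to 20.2). Cry1 had a median of 4.80 TPM, Clock of 4.37 TPM and Cry2 of 2.84 TPM, and Per3 and Per2 were again lowest, at 1.03 and 0.525 TPM. The ranges were apart between Nr1d1 and Dbp, between Cry2 and Per3, and between Per3 and Per2, and they overlapped for the other 6 pairs of neighbours. Heart and liver values come from separate tables and from mice of different genotype, so the levels stand side by side without a test.

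**Figure D1:**
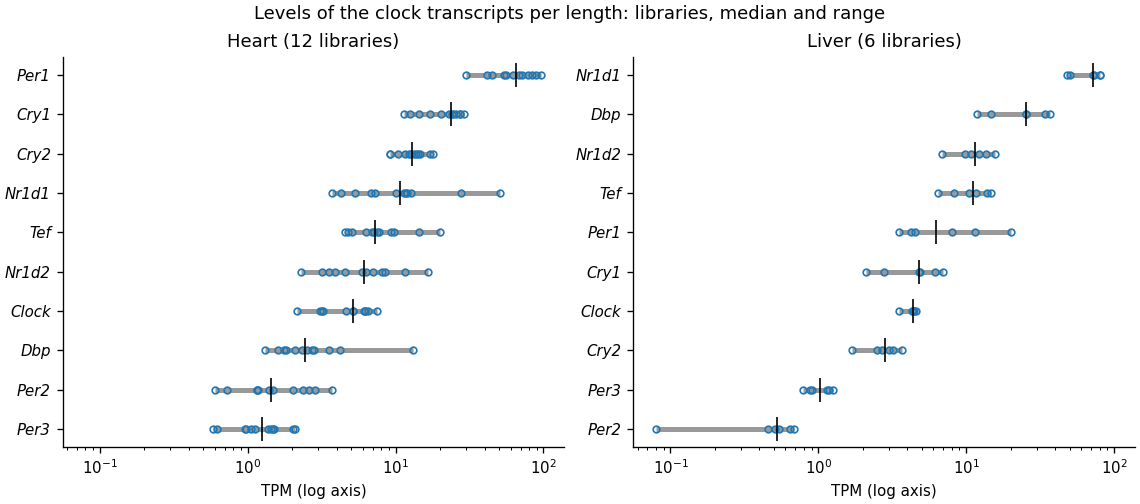
Levels of the 10 clock transcripts per length (TPM, log axis) in the 12 heart libraries and the 6 liver libraries; circles are libraries, the grey bar the range and the black tick the median. Per1 leads in the heart with a median of 65.2 TPM, and Nr1d1 in the liver with 72.3 TPM.

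Within the heart, the cryptochrome genes differed from each other. Cry1, which encodes the cryptochrome that inhibits CLOCK and BMAL1 together with PER, was lower in the OR than in any other region. Its level was 39.4, 36.1 and 41.3 CPM in Apex libraries 1, 2 and 3, and 41.9, 47.0 and 39.5 CPM in the LV. It was 37.7, 34.6 and 37.2 CPM in the VS and 23.3, 27.2 and 22.3 CPM in the OR. All 3 OR libraries thus lay below all 9 others, and the lowest library outside the OR was 1.27-fold above the highest OR library. The OR mean was 24.3 CPM ± 2.57 (SD, n = 3) and the mean of the other libraries 39.4 CPM ± 3.69 (SD, n = 9), a ratio of 1.62. Cry1 was the 1 member of the 10 with this pattern, which 1.01% of the 13542 genes tested in the heart also had. Taken against the VS alone, 4.68% of genes were lower in the OR without overlap.

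The Cry1 difference was of like size in each pair with the OR, pairs that share the same 3 OR libraries. The log2 fold change was 0.68 ± 0.13 (SE) for Apex over OR, 0.82 ± 0.13 for LV over OR and 0.59 ± 0.13 for VS over OR. Without OR library 1 these values were 0.65, 0.79 and 0.56, and without VS library 1 they were 0.69, 0.82 and 0.58. Among the regions other than the OR, Apex and LV differed by -0.14 ± 0.13, Apex and VS by 0.09 ± 0.13, and LV and VS by 0.23 ± 0.13, with all 3 LV libraries above all 3 VS libraries, as for 3.4% of genes. Ribosomal and cardiomyocyte sums were higher in the OR than in the Apex and LV, but overlapped the VS. The 10 ribosomal protein genes summed to 8309 to 9148 CPM in the OR, against 6109 to 6712 in the Apex, 6057 to 6684 in the LV and 4033 to 8452 in the VS. The 6 cardiomyocyte markers summed to 1246 to 1701 CPM in the OR, 912 to 1114 in the Apex, 913 to 1210 in the LV and 498 to 2455 in the VS. Endothelial markers overlapped between all regions, and leukocyte markers summed to between 46.1 and 82.6 CPM throughout the heart. The part of these contents in the Cry1 difference was not tested.

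Cry2, the second cryptochrome gene, did not show the pattern of Cry1. Its level was 17.7, 25.7 and 33.7 CPM in the Apex, 30.3, 30.5 and 30.1 CPM in the LV, 29.7, 25.2 and 28.6 CPM in the VS, and 28.6, 29.6 and 24.1 CPM in the OR. The lowest and the highest of the 12 values were both in the Apex. The LV libraries had an SD of 0.225 CPM (n = 3) and stood above all VS libraries (3.4% of genes) and all OR libraries (12.8%), but the log2 fold change was only 0.14 ± 0.19 for LV over OR and 0.12 ± 0.19 for LV over VS. For Apex over OR it was -0.09 ± 0.19.

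**Figure D2:**
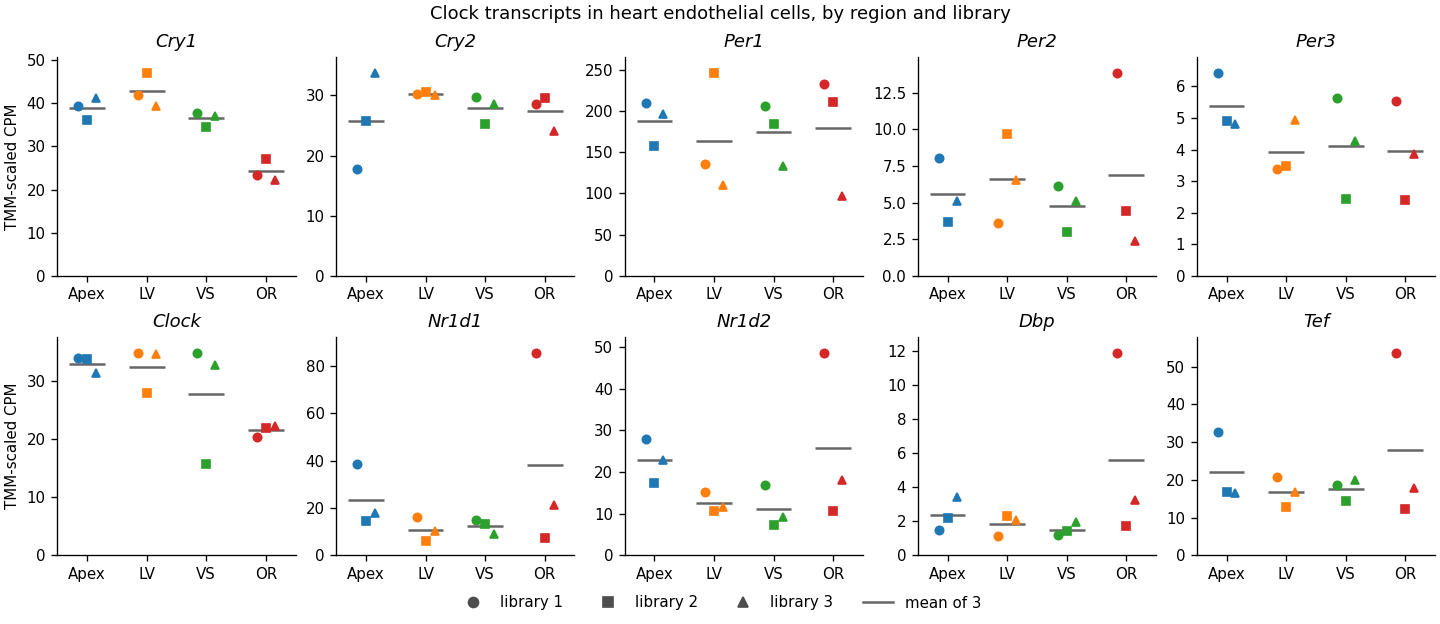
TMM-scaled CPM of the 10 clock transcripts in each heart library, by region; the marker shape gives the library number and the line the mean of 3. The 3 OR libraries of Cry1 lie between 22.3 and 27.2 CPM, below every other library, and OR library 1 is the highest point for Per2, Nr1d1, Nr1d2, Dbp and Tef.

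Clock, which encodes the histone acetyltransferase partner of BMAL1, was also low in the OR, at 20.3, 21.9 and 22.2 CPM. It was 33.9, 33.6 and 31.3 CPM in the Apex and 34.8, 27.9 and 34.6 CPM in the LV, so neither region overlapped the OR, as held for 13.3% and 12.8% of all genes tested. In the VS it was 34.8, 15.6 and 32.7 CPM, and VS library 2 lay below all OR libraries. The log2 fold change was 0.62 ± 0.23 (SE) for Apex over OR, 0.59 ± 0.23 for LV over OR and 0.37 ± 0.23 for VS over OR. With 1 library left out the last value ranged from 0.18 (without VS library 1) to 0.68 (without VS library 2). Arntl, whose protein BMAL1 pairs with CLOCK, stood at 25.0 CPM in OR library 1 and at 45.3 and 44.9 CPM in OR libraries 2 and 3. In the other regions Arntl ranged from 39.0 to 58.7 CPM, so its low level in the OR came from 1 library, unlike that of Clock.

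The REV-ERB and PAR bZIP genes varied widely between libraries of 1 region. Nr1d1 was 38.5, 14.4 and 17.7 CPM in the Apex, 16.3, 5.86 and 10.1 CPM in the LV, 15, 13.4 and 8.82 CPM in the VS, and 85.6, 7.41 and 21.1 CPM in the OR. OR library 1 was far above the rest and Apex library 1 was second, while OR library 2 was second lowest. Nr1d2, its paralogue, was 28.0, 17.5 and 23.0 CPM in the Apex, 15.3, 10.6 and 11.6 CPM in the LV, 16.8, 7.32 and 9.20 CPM in the VS, and 48.6, 10.6 and 18.1 CPM in the OR. The same 2 libraries were on top, and for both genes library 1 was the highest of its region in all 4 regions. It was so in 3 of the 4 regions for Per1, Per2, Per3, Clock and Tef, and in 1 for Cry1, Cry2 and Dbp. No share of all genes stands beside these counts, so nothing is read from them.

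Dbp, the D-box activator known for its strong daily rhythm in mouse liver, was low in all heart libraries but 1. Its level was 1.48, 2.21 and 3.45 CPM in the Apex, 1.11, 2.30 and 2.07 CPM in the LV, 1.19, 1.40 and 1.94 CPM in the VS, and 11.9, 1.72 and 3.26 CPM in the OR. The 12 libraries held 30 to 251 Dbp counts, so outside OR library 1 this transcript rests on few counts. Tef, the related D-box activator, was 32.6, 16.9 and 16.6 CPM in the Apex, 20.7, 12.9 and 16.8 CPM in the LV, 18.5, 14.3 and 20.1 CPM in the VS, and 53.7, 12.4 and 17.8 CPM in the OR. OR library 1 again led, and Apex library 1 was second for Tef but only ninth for Dbp.

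OR library 1 was the highest of the 12 for 5 members, Per2, Nr1d1, Nr1d2, Dbp and Tef, whereas it was the highest for 5.71% of all 13542 genes tested. It exceeded the second highest library 3.45-fold for Dbp, 2.22-fold for Nr1d1, 1.73-fold for Nr1d2, 1.65-fold for Tef and 1.43-fold for Per2. The same library had the lowest Arntl of all 12. Together with Apex library 1 it made up the top 2 for 3 of the 10 members (Nr1d1, Nr1d2 and Tef), 0 of 20 other clock genes and 2.03% of all genes tested. Across the 12 libraries the SD of log2 CPM was 1.05 for Nr1d1, larger than for 95.6% of genes, and 0.90 for Dbp, larger than for 93.3%. It was 0.76 for Nr1d2, 0.72 for Per2 and 0.59 for Tef, against 0.24 for Cry2 and a median of 0.28 over all genes tested. The genes ranked were of every level, whereas Dbp (30 to 251 counts) and Per2 (62 to 292 counts) rest on few counts.

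**Figure D3:**
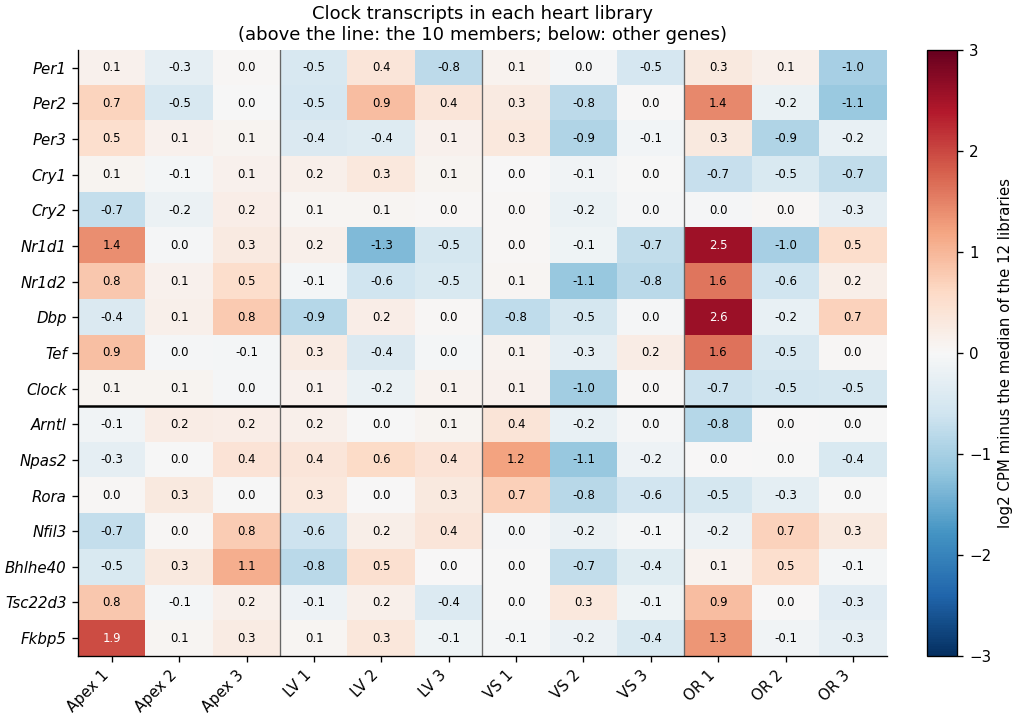
Log2 CPM of each gene minus its median over the 12 heart libraries (colour, and the number in each cell), for the 10 members above the black line and 7 other genes below it. OR 1 and Apex 1 are red for Nr1d1, Nr1d2 and Tef, while Arntl is blue in OR 1, where it stood at 25.0 CPM.

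The group differences of these genes against the OR depended on OR library 1. For Dbp the log2 fold change over all 12 libraries was -1.23 ± 0.58 (SE) for Apex over OR, -1.61 ± 0.59 for LV over OR and -1.89 ± 0.59 for VS over OR. Without OR library 1 the same values were -0.06, -0.45 and -0.72. Nr1d1 moved from -0.69 ± 0.68 to 0.72 for Apex over OR, from -1.81 ± 0.70 to -0.40 for LV over OR, and from -1.61 ± 0.70 to -0.20 for VS over OR. The first of these changed sign.

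Nr1d2 moved likewise from -1.04 ± 0.46 to -0.20 for LV over OR and from -1.21 ± 0.46 to -0.37 for VS over OR. Tef moved from -0.73 ± 0.45 to 0.15 for LV over OR, and Per2 from -0.04 to 0.97. Cry1 and Clock moved less, and without OR library 1 they stayed above the OR in all 3 pairs. Between regions other than the OR, the clearest difference among the REV-ERB genes was that of Nr1d2, whose Apex libraries did not overlap those of the LV or the VS. Its log2 fold change was 0.87 ± 0.45 for Apex over LV and 1.04 ± 0.46 for Apex over VS. Of all genes tested, 7.35% lay above the LV and 6.79% above the VS in the Apex in the same way.

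**Figure D4:**
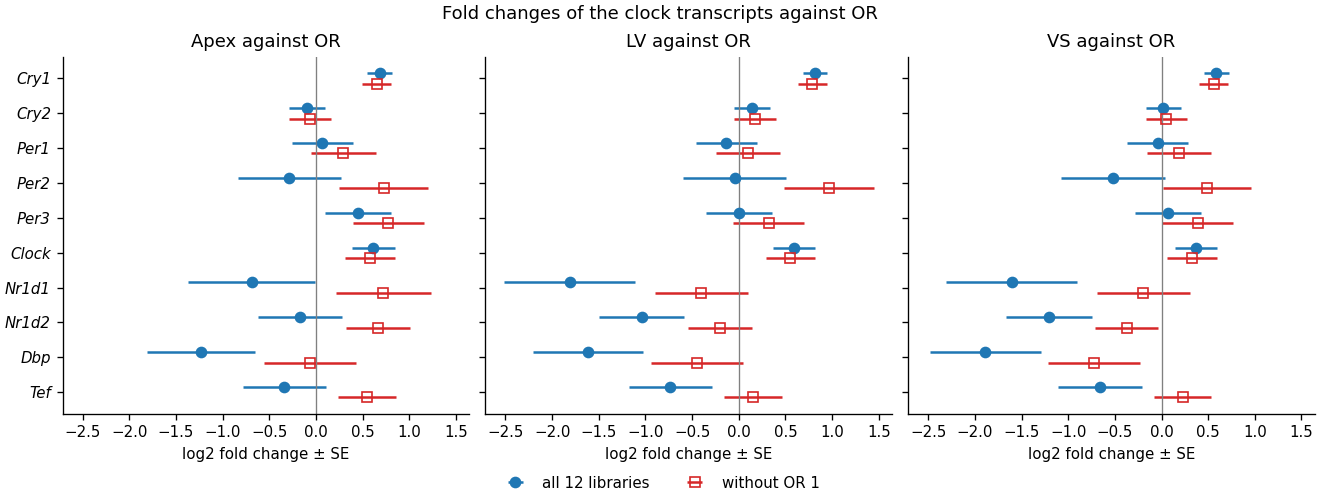
Log2 fold change of each member over the OR for the Apex, LV and VS, with SE bars, from all 12 libraries (filled circles) and without OR library 1 (open squares). Cry1 stays at 0.56 or above in all 6 estimates, whereas Nr1d1 for Apex over OR goes from -0.69 to 0.72.

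Genes that respond to glucocorticoids, hormones that also vary with the time of day, were listed with the clock genes. The values of Fkbp5, Tsc22d3 and Zbtb16 are given because of their pattern, having been picked after they were seen. Fkbp5, which encodes a co-chaperone of the glucocorticoid receptor, stood at 70.1 CPM in Apex library 1 and 45.7 CPM in OR library 1, against 13.3 to 22.8 CPM in the other 10. Tsc22d3, also on the list of clock output genes, encodes the glucocorticoid-induced leucine zipper. It stood at 876 and 952 CPM in those libraries and at 374 to 616 CPM elsewhere. Zbtb16, a zinc finger factor, stood at 77.0 and 77.2 CPM, and at 5.61 to 26.5 CPM elsewhere. Of the 6 genes of the list, 4 (with Klf9 as the fourth) had these 2 libraries on top, as had 2.03% of all 13542 genes tested. Sgk1 had them lowest, and Dusp1 had Apex library 1 lowest. All 6 genes together summed to 5974 to 8687 CPM in the Apex and 6936 to 9815 CPM in the OR, overlapping the LV at 6318 to 9197 CPM and the VS at 7492 to 8866 CPM. Most of this sum was Dusp1 and Sgk1 (2985 and 1551 of 5974 CPM in Apex library 1), so it says little about the other 4.

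The 8 immediate-early genes that cell isolation can raise (Fos, Fosb, Jun, Junb, Egr1, Atf3, Ier2 and Ier3) were all lowest in Apex library 1, with a sum of 11883 CPM there. The other 11 libraries summed to between 17953 and 40979 CPM, with OR library 1 at 21124 CPM. The part of hormone response, isolation or collection in the clock pattern of these 2 libraries was not tested.

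The Period genes, whose proteins are the partners of the cryptochromes, showed no regional order. Per1 was 209, 158 and 197 CPM in the Apex, 136, 246 and 110.0 CPM in the LV, 206, 184 and 133 CPM in the VS, and 232, 210.3 and 96.2 CPM in the OR. The lowest library was in the OR, and so were both libraries next below the highest. Per2 was 8.05, 3.66 and 5.08 CPM in the Apex, 3.59, 9.70 and 6.56 CPM in the LV, 6.13, 2.96 and 5.11 CPM in the VS, and 13.8, 4.40 and 2.35 CPM in the OR. Its highest and lowest libraries were both in the OR. Per3 was 6.42, 4.92 and 4.81 CPM in the Apex, 3.37, 3.48 and 4.95 CPM in the LV, 5.64, 2.43 and 4.26 CPM in the VS, and 5.54, 2.42 and 3.87 CPM in the OR. All regions overlapped for Per1 and Per2, and for Per3 the Apex overlapped every other region. The largest Period difference in any pair was -0.52 ± 0.56 (SE, log2) for Per2 in VS over OR, and it turned to 0.49 without OR library 1.

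Several members lie over or beside another gene on mm10 (GENCODE M21), which matters for counting. Nr1d1 lies at chr11:98767932-98775333 (minus strand), and its exons share 263 bases, 8.55% of their length, with Thra on the opposite strand. Dbp lies at chr7:45705088-45710203 (plus strand) and shares 539 exon bases, 18.0% of its own, with Sphk2 on the opposite strand. The labels do not say whether reads were counted by strand, so reads from the shared bases cannot be assigned to 1 gene of either pair. The deposited counts of Nr1d1, Thra, Dbp and Sphk2 were fractional in all 12 heart and all 6 liver libraries, as where reads are divided between genes. Those of the other members and of Camta1 were whole in every library. Thra, which encodes a thyroid hormone receptor, was 162, 179 and 167 CPM in the OR and 132 to 171 CPM elsewhere, and Sphk2, a sphingosine kinase gene, was 30.7, 23.9 and 28.7 CPM in the OR and 23.3 to 34.9 CPM elsewhere. Neither neighbour was out of range in OR library 1, where Nr1d1 and Dbp were highest. Cry1 lies at chr10:85131700-85185064 (minus strand), Clock at chr5:76209868-76304792 (minus strand) and Per1 at chr11:69095217-69109960 (plus strand). Per2 lies at chr1:91415982-91459324 and Nr1d2 at chr14:18204054-18239127 (both minus strand). Cry2 (chr2:92403646-92434043, minus strand) overlaps the antisense transcript D930015M05Rik, Tef (chr15:81802421-81826863, plus strand) the antisense model Gm17597, and Per3 (chr4:151003652-151044665, minus strand) lies within Camta1 on the same strand with 0 shared exon bases.

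In edgeR's quasi-likelihood test on all 12 heart libraries, 0 of the 10 members had a Benjamini-Hochberg adjusted p under 0.05 over the 4 regions or in any of the 6 pairs, where 0% of all genes did. At an unadjusted p under 0.05 the members numbered 3 over the 4 regions (1084 of 13542 genes), 2 for Apex against OR (1642 genes), 5 for LV against OR (1564 genes) and 4 for VS against OR (952 genes). They numbered 1 for Apex against VS (1011 genes) and 0 for the other 2 pairs (728 and 394 genes). DESeq2, run as an alternative, called Cry1 over the 4 regions and in the 3 pairs with the OR, where it called 0.642% of all genes over the regions, 0.214% for the Apex, 0.362% for the LV and 0.17% for the VS. Fitted on the 6 libraries of a pair alone, edgeR called Cry1 and Clock for Apex against OR (7.3% of genes) and for LV against OR (3.53%). Without VS library 1, edgeR called Cry1 over the 4 regions (10.8% of genes), for Apex against OR (6.25%) and for LV against OR (2.72%). These p-values measure only the spread between libraries, which may be technical. Since Cry1 and Clock were chosen with these contrasts known, nothing is read from these counts.

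The other clock genes gave no call either. Of 22 listed, 20 were tested in the heart, and 0 passed edgeR's adjusted threshold over the 4 regions or in any pair. At an unadjusted p under 0.05 there was 1 over the 4 regions, 1 in each pair of the Apex with another region, 2 for LV against OR and 0 in the other 2 pairs, and DESeq2 called 0 in all 7 tests. Their median log2 fold change was 0.18 for Apex over OR, 0.17 for LV over OR and 0.05 for VS over OR, with medians of 0.00 for all genes. Hlf, the third PAR bZIP gene, was 2.34, 2.46 and 3.90 CPM in the Apex and 7.0, 5.78 and 4.64 CPM in the LV, a log2 fold change of -1.0 ± 0.29 (SE) with an edgeR adjusted p of 0.861. In OR library 1 Hlf stood at 4.92 CPM, the third highest of the 12 values, below LV libraries 1 and 2. The lists of 7 output genes of the clock and 6 glucocorticoid-response genes share Tsc22d3. Of these lists and the 8 immediate-early genes, none was called by edgeR over the 4 regions, and 1, 0 and 0 had an unadjusted p under 0.05. Tspan4, an output gene that encodes a tetraspanin, had the smallest p of these (0.046 unadjusted, 0.623 adjusted by edgeR).

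The remaining regulators of the loop are given by their range over the 12 heart libraries. Npas2, the paralogue of Clock, ranged from 1.77 to 9.01 CPM, with the lowest and the highest library both in the VS. Rora, which encodes an activator of Arntl, ranged from 16.0 to 46.6 CPM, and the same VS libraries 2 and 1 were lowest and highest. These VS libraries thus stood at opposite ends for several clock genes, and VS library 1 also had the lowest ribosomal and cardiomyocyte sums of the heart. Among the repressors, Nfil3 (which opposes DBP at D-boxes) ranged from 16.9 to 47.0 CPM and Bhlhe40 (which opposes CLOCK at E-boxes) from 219 to 826 CPM. Bhlhe41 stood at 0.198 to 1.28 CPM on 5 to 29 counts, and Ciart at 0.296 to 2.04 CPM on 7 to 55 counts.

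Genes with the profile most like that of Cry1 over the 12 heart libraries were sought among 9820 genes with a mean of at least 5 CPM. The 5 nearest by Pearson's r of log2 CPM were Mtmr4 (0.959), Mertk (0.916), Dab2 (0.904), Ube4a (0.902) and Oas2 (0.898). Without OR libraries 3 and 1, the r was 0.931 for Mtmr4, 0.819 for Mertk, 0.824 for Dab2, 0.694 for Ube4a and 0.784 for Oas2. For Dbp the nearest were Atg10 (0.867), Asrgl1 (0.845), Cacybp (0.811), Ube2e2 (0.808) and Cct4 (0.806). Without OR library 1 and LV library 1, these ranged from 0.401 for Ube2e2 to 0.838 for Atg10. No core clock gene was among the 5 of either, but Dbp and Per3 lay below that mean level and could not be returned. Dbp had an r of 0.650 with Nr1d2, 0.588 with Nr1d1, 0.573 with Tef and -0.722 with Arntl. Of the genes at that mean level, 98.9%, 97.2%, 96.7% and 0.856% had a lower r with Dbp. Its r with the other members was below that with Tef. Without OR library 1 and LV library 1 the values became, in the same order, 0.271, -0.0063, -0.190 and 0.076. These libraries share regions, so r serves only to rank genes.

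In the liver, Per1 was the member that set the reporter groups apart. Its level was 11.9, 14.3 and 13.4 CPM in the tdTomato-positive libraries and 60.9, 35.0 and 24.7 CPM in the tdTomato-negative ones, with no overlap. The means were 13.2 CPM ± 1.24 and 40.2 CPM ± 18.6 (SD, n = 3 each), and the log2 fold change, positive over negative, was -1.61 ± 0.33 (SE). With 1 library left out it ranged from -1.87 (without negative library 3) to -1.18 (without negative library 1). Per1 was the 1 member of the 10 whose positive libraries all lay below the negative ones, and 9.91% of the 13115 genes tested in the liver did so. Per1 is known as an immediate-early gene as well as a clock gene.

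The levels of immediate-early genes varied between the same libraries. For Fos the positive libraries gave 409.6, 242 and 249.7 CPM and the negative ones 4715, 3444 and 323 CPM. For Atf3 they gave 12, 10.3 and 9.66 CPM and 691, 516 and 11.7 CPM. The 8 genes of this list summed to 1526 to 2096 CPM in the positive libraries and 1764 to 16309 CPM in the negative ones, where library 3 was the low one. All 8 were lower in the positive group, with a median log2 fold change of -2.61 against 0.00 for all genes, and none passed edgeR's adjusted threshold, although each of the 8 did so before adjustment. DESeq2 called 4 of the 8. In negative library 3 all genes of this list but Fosb lay within the range of the positive libraries. Fosb, at 21.1 CPM, lay above all of them (12.5 to 20.0 CPM), as did Per1, at 24.7 CPM. The part of cell isolation in the Per1 difference was not tested.

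The other Period genes did not separate the groups. For Per2 the positive libraries gave 1.65, 1.93 and 1.94 CPM and the negative ones 2.53, 0.287 and 2.22 CPM, on 7 to 67 counts, a log2 fold change of 0.13 ± 0.70. Its lowest value, that of negative library 2, rests on 7 counts. Per3 stood at 3.26, 4.36 and 4.51 CPM against 3.44, 3.07 and 4.25 CPM, with 0.17 ± 0.26.

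The cryptochrome genes overlapped between the groups too. Cry1 was 11.1, 8.95 and 8.65 CPM in the positive libraries and 5.13, 3.93 and 12.1 CPM in the negative ones, a log2 fold change of 0.44 ± 0.42. Negative library 3 alone made the overlap, and without it the value was 1.06 ± 0.21, the highest with 1 library left out, where the lowest was 0.14. Cry2 was 4.11, 7.10 and 6.04 CPM against 8.57, 7.66 and 6.28 CPM, with -0.38 ± 0.26, and its groups overlapped by the highest positive and the lowest negative library.

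Negative library 3 also differed in its leukocyte markers. All 6 were detected, and their sum was 1333 to 2146 CPM in the positive libraries and 73.8, 143 and 4527 CPM in negative libraries 1, 2 and 3. Adgre1, a macrophage marker, was 87.1, 85.4 and 46.5 CPM in the positive libraries and 2.30, 4.09 and 258 CPM in the negative ones. Ptprc, the common leukocyte antigen, was 19.5, 22.6 and 19.7 CPM against 0.717, 1.60 and 48.7 CPM. These markers had the same order of libraries as Cry1 in that negative library 3 was highest and negative libraries 1 and 2 lowest. The 5 hepatocyte markers summed to 148 to 192 CPM in the positive libraries and 160 to 558 CPM in the negative ones. The part of other cells in the Cry1 and Per1 values was not tested.

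Clock, the REV-ERB genes, Dbp and Tef overlapped between the reporter groups. Clock was 28.1, 28.7 and 28.2 CPM in the positive libraries and 28.4, 30.2 and 21.8 CPM in the negative ones, with a log2 fold change of 0.08 ± 0.14. Nr1d1 was 79.2, 122 and 118 CPM against 84.2, 137 and 128 CPM, with -0.12 ± 0.24. Library 1 was the lowest of both groups. Nr1d2 was 19.6, 40.1 and 44.5 CPM against 31.6, 35.7 and 26.8 CPM, with 0.15 ± 0.31.

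Dbp was 13.4, 31.9 and 33.5 CPM in the positive libraries and 11, 23.7 and 22.2 CPM in the negative ones, with 0.47 ± 0.44. Tef was 17.5, 32.7 and 37.0 CPM against 23.3, 28.7 and 38.7 CPM, with -0.06 ± 0.32. Positive library 1 was the lowest of the 6 for Cry2, Per1, Nr1d1, Nr1d2 and Tef. The lowest was negative library 2 for Cry1, Per2 and Per3, negative library 1 for Dbp and negative library 3 for Clock. For Nr1d1, Dbp and Tef, library 1 was below libraries 2 and 3 in both groups, although the groups as wholes overlapped. No share of all genes stands beside these orders, so nothing particular to the clock is read from them.

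**Figure D5:**
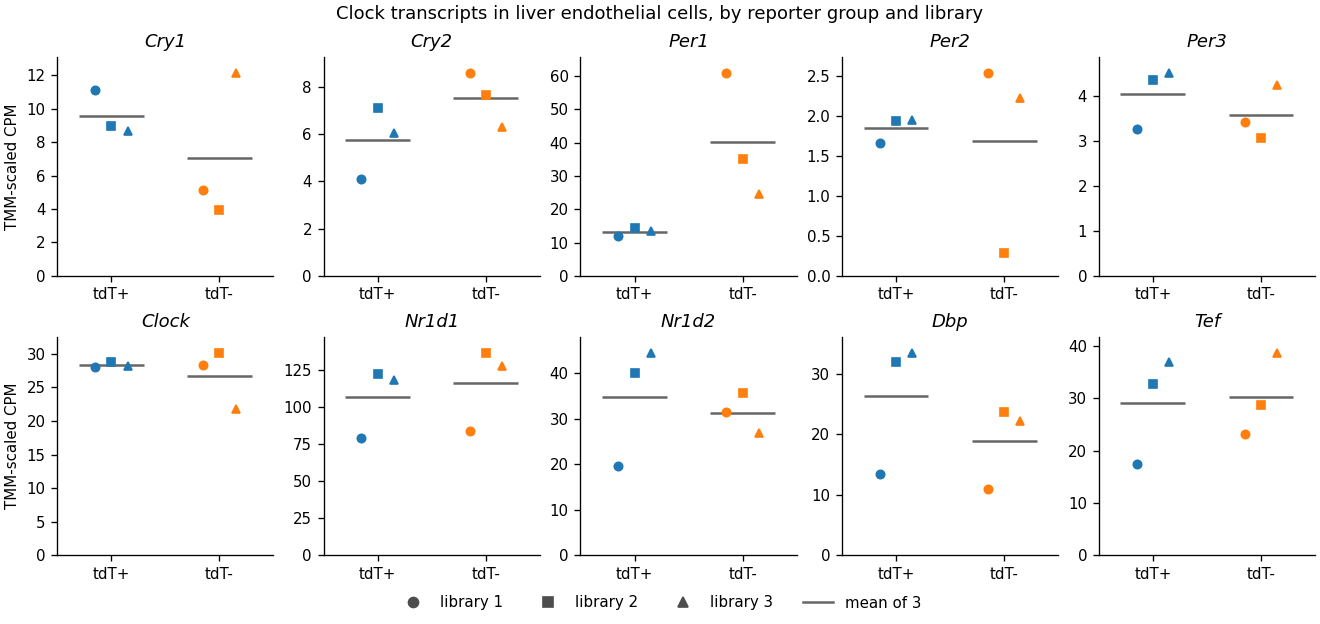
TMM-scaled CPM of the 10 clock transcripts in the liver libraries, tdTomato-positive (tdT+) and tdTomato-negative (tdT-); the marker shape gives the library number and the line the mean of 3. Per1 lies between 11.9 and 14.3 CPM in the positive libraries and between 24.7 and 60.9 CPM in the negative ones, and for Cry1 negative library 3 stands alone at 12.1 CPM.

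In edgeR's test on the 6 liver libraries, 0 of the 10 members passed the adjusted threshold, where 0% of all genes did, and 1 member had an unadjusted p under 0.05, as did 1872 of the 13115 genes. DESeq2 called Per1, with 5.21% of all genes. Without negative library 3, edgeR called Cry1 and Per1, with 31.5% of all genes. The members were chosen with this contrast known, so nothing is read from these counts. Of the other clock genes 18 were tested, 13 with a log2 fold change below 0 and 5 above it, and their median was -0.09. By edgeR 0 of the 18 passed the adjusted threshold, 5 had an unadjusted p under 0.05, and DESeq2 called 3, Bhlhe40, Csnk1d and Nfil3, all lower in the positive libraries.

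Arntl was 54.7, 47.7 and 51.8 CPM in the positive libraries and 32.8, 26.3 and 42.5 CPM in the negative ones, with no overlap. Of all genes tested, 10.7% were higher without overlap and 9.91% lower. The log2 fold change of Arntl was 0.60 ± 0.18 (SE), with an edgeR adjusted p of 0.276. Nfil3 was 1.33, 1.74 and 1.86 CPM against 7.02, 5.36 and 3.20 CPM, a log2 fold change of -1.66 ± 0.36 (edgeR adjusted p of 0.276). Bhlhe40, itself inducible by many stimuli, was 28.9, 33.7 and 39.9 CPM against 222, 262 and 47.4 CPM, with -2.38 ± 0.63 (edgeR adjusted p of 0.276). All 3 kept the groups apart in every library, with negative library 3 the nearest to the positive ones.

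In all, 7 of the 18 other clock genes tested kept the groups apart, 2 higher and 5 lower in the positive libraries. Of all genes tested, 10.7% were higher and 9.91% lower in this way. Rora was among the lower ones, at 21.8, 19.0 and 23.2 CPM against 24.5, 33.5 and 24.3 CPM (log2 fold change of -0.36 ± 0.16, edgeR adjusted p of 0.380). Of the remaining regulators, Npas2 ranged over the 6 liver libraries from 1.74 to 5.57 CPM and Hlf from 2.5 to 5.49 CPM. Bhlhe41 stood at 0.121 to 0.540 CPM and Ciart at 0.491 to 0.964 CPM. Among 7 clock output genes none was called by edgeR, and 1 had an unadjusted p under 0.05. This was Usp2, a ubiquitin protease gene, at 2.58, 1.74 and 1.34 CPM in the positive libraries and 4.45, 3.69 and 4.37 CPM in the negative ones (log2 fold change of -1.14 ± 0.32, edgeR adjusted p of 0.276).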

How the data were processed

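RNA from mouse heart and liver endothelial cells was captured as poly(A) RNA and read as paired 100 bp reads, per the labels' protocols; the build is mm10, per the submitters' processing notes, while the aligner and counter are not given in the sources used here. Per the file headers, the authors deposited TPM, a unit scaled for gene length and depth, and a read count for each library. The deposited counts are expected counts, estimated by the authors per gene and not scaled to depth, as their fractional values show. The 4th heart region is OR in the titles and OZ in the columns and the design text. The counts were rounded and tested in edgeR 4.0.16 (R 4.3.3) with its filter on low counts, TMM scaling, quasi-likelihood F tests and Benjamini-Hochberg adjustment over 13542 heart or 13115 liver genes, at a threshold of 0.05. All 10 members passed the filter in both tissues. The SE was obtained by dividing the log2 fold change by the root of its F statistic. The tests were run on simulated counts with known fold changes. The simulation held no outlying library, so it cannot speak to calls that depend on a single library. DESeq2 1.42.0, RLE scaling, no filter, a replicate block, each heart pair alone and the omission of each library were alternatives.

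The members and all gene lists were chosen with earlier results of these data known. Every member was named with each library's value. Of the other clock genes 9 were to be named whatever their values, of which 1 is not reported here, and others only where they passed a test named beside them. For the other lists up to 4 genes with the smallest p could be named, with exceptions stated. For Cry1 and Dbp the 5 genes with the highest r were named, without unnamed models and pseudogenes. Of 36 per-library columns, 0 were unmatched. No pair of libraries agreed within sampling noise.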

Additional observations from a re-analysis of the deposited data

How the results depend on the processing

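Of 340 log2 fold changes of the members under DESeq2, RLE scaling, no filter, the replicate block or the 2 regions alone, all 340 stayed within 1 SD between replicates of the reported value, as did 60 of 60 group levels under RLE. Leaving out 1 library moved 15 of 780 by more. Omitting 1 of 3 libraries can seldom pass this limit, and in the heart the omitted library was often in neither region compared. The count is thus no measure of stability. Some values within the limit changed sign, such as Per2 for LV over OR, which ranged from -0.46 to 0.97. Of the 15, 13 were values of Per2, Nr1d1, Nr1d2, Dbp and Tef against the OR without OR library 1. The others were Cry2 for LV over VS without VS library 2 and liver Cry1 without negative library 3. The cause was not tested. Since edgeR called none, no called value changed sign. Calls depended on the setting. Genes called, 0 in each comparison by edgeR, were with DESeq2 24 for Apex against LV, 19 for Apex against VS, 29 for Apex against OR, 18 for LV against VS, 49 for LV against OR, 23 for VS against OR, 87 over the 4 regions and 683 in the liver. On the 2 regions alone they were 20, 956 and 462 for Apex against LV, Apex against OR and LV against OR. With 1 library left out they ranged from 0 to 1, 0 to 1611, 0 to 860, 0 to 613, 0 to 375 and 0 to 8 for the pairs in the order given for DESeq2, 0 to 1481 over the 4 regions and 0 to 4230 in the liver. The highest heart values came without VS library 1 and the liver one without negative library 3. Members called, 0 in the tests reported, were 1 with DESeq2 for Apex against OR, LV against OR, VS against OR, the 4 regions and the liver, and 2 on the 2 regions alone for Apex against OR and LV against OR. With 1 library left out they ranged from 0 to 1 for Apex against OR, LV against OR and the 4 regions, and from 0 to 2 in the liver. Other clock genes called were 3 with DESeq2 in the liver and 1 for LV against OR on the 2 regions alone. With 1 library left out they ranged from 0 to 3 for Apex against VS, 0 to 2 for LV against VS and the 4 regions, 0 to 1 for LV against OR and 0 to 6 in the liver.

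The labels do not say whether libraries of the same number share an animal, and correlations cannot settle it. Of 18 same-numbered heart pairs, 4 had a correlation of deviations over 0.1 (-0.057 to 0.235), and of 3 liver pairs 0 did (-0.207 to -0.010). The median was 0.027 for same-numbered heart pairs and -0.022 for the other heart pairs. In the heart 7 of 12 libraries correlated best with their own number, a hint from the data and not from the design, and in the liver 0 of 6. With the replicate block 1 gene was called for Apex against LV, 0 in every other comparison and 0 members. Each group had 3 libraries, and liver Per2 rested on 7 to 67 counts and heart Dbp on 30 to 251 counts a library.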
